A study of Mus musculus with 9 samples.

Results

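The integrin and laminin genes of the mouse were followed through coronary ligation and cell implantation in the infarct border zone of the heart. Members were taken by a rule on symbols, which was set with earlier results of these data known. It covers every gene named Itga or Itgb with a number or chain letter, and every Lama, Lamb or Lamc gene with a digit. The rule took 38 of the 53465 gene IDs in the count files, of which 53274 carry a symbol. They comprise 27 integrin genes (18 alpha and 9 beta chains) and 11 laminin genes (5 alpha, 3 beta and 3 gamma chains). The 4 genes Itgb3bp, Itgb1bp1, Itgb1bp2 and Itgbl1 have similar symbols, encode no integrin chain and were left out.

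All 9 libraries came from hearts of NOD-SCID mice, a strain without mature T and B lymphocytes, and the labels name the border zone of the infarct as the region sampled. The sham group (3 libraries) had the operation without ligation, the ligation group (3) had a coronary artery tied, and the cell group (3) had the ligation and an implant of cells called FOXO3-GE-MPCs, an abbreviation that the labels do not spell out. Age, sex, the time after surgery, the number of animals behind a library and a ligated group given a control implant are not given in the sources used here, so p-values measure the spread between libraries, which may in part be technical. Libraries held 4549268 (ligation replicate 1) to 7515052 (ligation replicate 3) gene counts, and 3 counts, taken as the smallest detectable level, correspond to 0.375 to 0.639 CPM (counts relative to the library total, after scaling of library sizes with TMM factors).

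Some labels left doubts. For replicates 2 and 3 of the cell group, title and treatment say FOXO3, which was followed, while the source field gives another member of the family. In the column headers, sham replicates 1 and 2 share a name stem, and so do ligation replicates 2 and 3. Counts within every replicate pair of the same group differed beyond sampling noise (mean chi-square per gene 1.98 to 3.96), and all 9 libraries were kept. The pairs sharing a stem gave 3.96 (sham) and 2.30 (ligation). This cannot tell whether such a pair comes from 1 animal, since separate preparations of 1 heart can also differ. Heart muscle was present in each library, with a list of 7 cardiomyocyte markers summing to 35280 to 36220 CPM in sham, 27640 to 29490 after ligation and 27430 to 28460 with cells. Of the 7, 4 were called lower and 1 higher after ligation, where over all genes tested 18.0% were lower and 20.1% higher. The part of heart muscle content in the values of muscle genes below (Itga7, Lama2, Dag1, Dmd, Itgb1bp2) was not tested.

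Integrins are receptors that span the cell membrane and tie the extracellular matrix, or a neighbouring cell, to the actin skeleton. Each receptor is 1 alpha chain with 1 beta chain: Itgb1 pairs with most alpha chains, the chain encoded by Itgav pairs with several beta chains, and Itgb2 is the beta chain of leukocytes. Laminins are cross-shaped trimers of an alpha, a beta and a gamma chain that form the sheet of the basement membrane around heart muscle cells and blood vessels. In muscle the Lama2 chain is the main laminin alpha chain and links through dystroglycan and the Itga7 receptor to the cytoskeleton, whereas Lama4 and Lama5 are the alpha chains of vessel walls.

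Sequences upstream of the start sites are shown for 5 members that moved in different ways, since promoter sequence is the regulatory sequence at hand for genes of such unlike expression. Itgam and Itgb7 fell with cells, Itga5 and Itgb5 rose after ligation, and Lama5 fell in all 3 comparisons. RefSeq promoters of GRCm38.p6 were at hand for 24 of the 38 genes in 27 windows. The 250 bases before each start are printed 5′ to 3′ on the strand of the gene, and capitals mark GAGGAA on either strand (TTCCTC when read on the other strand), the purine-rich box that the myeloid factor PU.1 is known to bind.
Itgam: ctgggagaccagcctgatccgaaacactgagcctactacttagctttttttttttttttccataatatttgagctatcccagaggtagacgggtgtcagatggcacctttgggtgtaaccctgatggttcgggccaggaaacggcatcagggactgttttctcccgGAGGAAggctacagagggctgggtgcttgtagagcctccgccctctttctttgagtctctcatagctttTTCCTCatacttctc
Itgb7: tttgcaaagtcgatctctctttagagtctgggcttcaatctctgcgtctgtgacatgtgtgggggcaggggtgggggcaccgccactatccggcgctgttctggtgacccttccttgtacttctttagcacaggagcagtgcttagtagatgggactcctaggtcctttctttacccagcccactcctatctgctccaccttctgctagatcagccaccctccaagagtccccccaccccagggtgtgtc
Itga5: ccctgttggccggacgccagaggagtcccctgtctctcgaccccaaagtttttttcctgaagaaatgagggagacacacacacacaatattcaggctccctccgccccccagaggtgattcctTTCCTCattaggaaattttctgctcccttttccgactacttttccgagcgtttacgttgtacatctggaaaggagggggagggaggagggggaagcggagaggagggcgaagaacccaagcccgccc
Itgb5: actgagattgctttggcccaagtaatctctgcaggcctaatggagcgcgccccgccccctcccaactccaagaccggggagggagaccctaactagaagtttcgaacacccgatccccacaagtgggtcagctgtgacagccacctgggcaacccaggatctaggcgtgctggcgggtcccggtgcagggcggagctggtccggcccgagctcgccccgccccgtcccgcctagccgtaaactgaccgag
Lama5: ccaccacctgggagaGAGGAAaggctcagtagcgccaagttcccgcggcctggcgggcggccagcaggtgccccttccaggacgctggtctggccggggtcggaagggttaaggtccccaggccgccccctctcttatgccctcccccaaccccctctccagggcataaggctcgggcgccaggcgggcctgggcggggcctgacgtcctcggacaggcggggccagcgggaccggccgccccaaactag
The windows are chr7:128062390-128062639 (plus strand) for Itgam, chr15:102231936-102232185 (minus) for Itgb7, chr15:103366792-103367041 (minus) for Itga5, chr16:33829415-33829664 (plus) for Itgb5 and chr2:180225860-180226109 (minus) for Lama5. The box stood 84 and 15 bases before the start of Itgam, 127 before that of Itga5 and 235 before that of Lama5, and these letters were not found in the windows of Itgb7 and Itgb5. It was present in 14 of the 27 member windows and in 23.3% of all 32851 windows of this length. A match is a description of the letters and not a site. The AP-1 core TGANTCA was found in 1 member window, that of Itgax, and in 6.75% of all windows, the GC box GGGCGG in 9 and in 32.7%, and TATAAA in 0 and in 12.4%, each searched on both strands.

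To compare genes with each other, CPM were divided by the mean length of a gene's protein-coding transcripts in kb. On this scale Itgb1 stood first in every group, with means of 132 CPM per kb in sham, 186 after ligation and 202 with cells. Lamb2, a beta chain of muscle and vessel laminins, came next (81.5, 93.7 and 86.5 CPM per kb), then Itgb5 (45.6, 90.9 and 84.7), then Lamc1, the gamma chain of most laminins, with means in the same order in all 3 groups. Lamb2 and Itgb5 did not differ beyond their spread after ligation (SDs 5.39 and 6.96) or with cells (1.80 and 1.67). With summed exon length in place of transcript length these 4 genes kept the first 4 places in sham, while the order of the genes behind them moved. Next in sham came the laminin receptor chains Itga6 (32.3 CPM per kb) and Itga7 (31.6), which did not differ beyond their spread there. At the other end, Itgb2l had 0 counts in all libraries, which allows at most the detectable level given above. Lama1 had at most 2 counts and Itgad at most 11 in any library, and these 3 genes did not pass the filter on low counts, leaving 35 of 38 members tested.

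**Figure D1:**
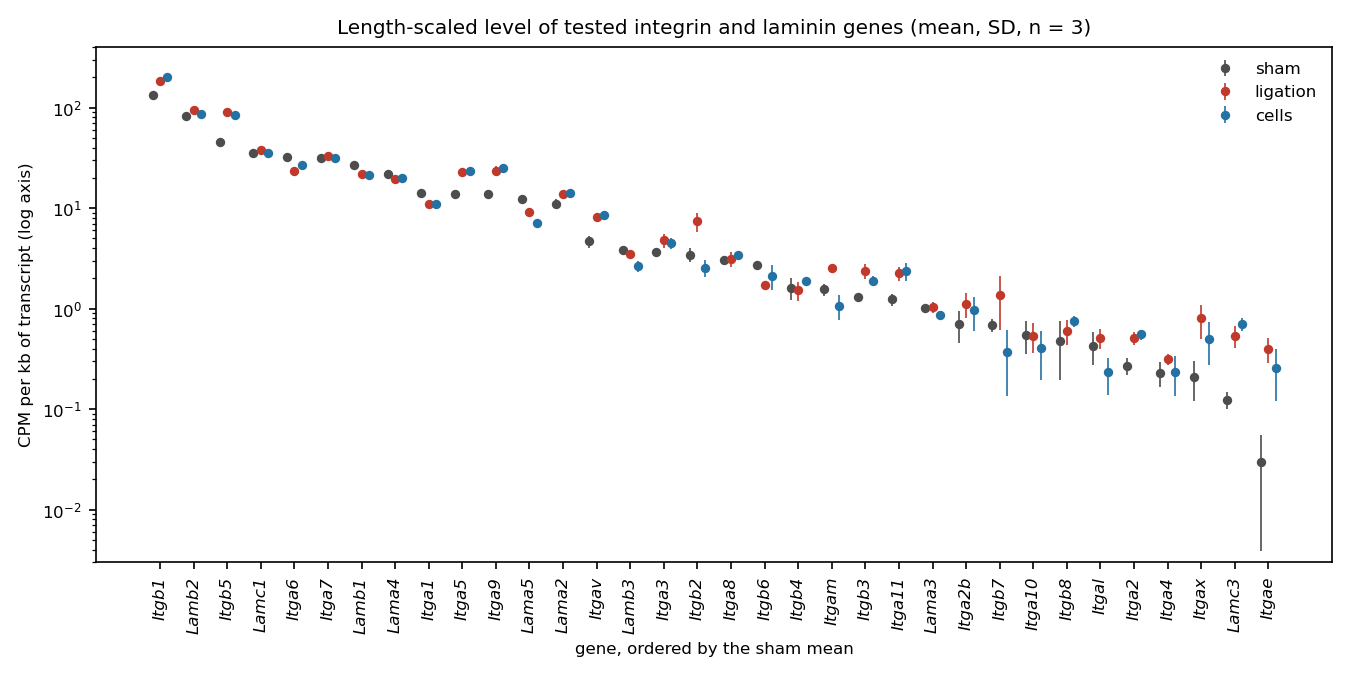
Length-scaled level (CPM per kb of transcript, log axis) of 34 of the 35 tested genes in sham, ligation and cells, ordered by the sham mean; points are means and bars SDs of 3 libraries. Levels span more than 3 decades, Itgb1 is highest in each group, and Itgae, at the right, had 2 counts in all sham libraries together.

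After ligation, 16 of the 35 tested members were higher than in sham and 5 lower, with 14 not past 0.05 (quasi-likelihood test of edgeR, p-values adjusted by Benjamini-Hochberg over all 13825 genes tested). Over all those genes 20.1% were called higher and 18.0% lower. Among the 16, Itgae, Itgax and Lamc3 had at most 5 counts in any sham library. They passed the filter on low counts only through ligated libraries, where they are high. The median log2 fold change was 0.42 over the tested members, 0.69 over the 25 integrins and 0.05 over the 10 laminins, against 0.01 over all genes. With library totals in place of TMM factors, which moved the median of all genes by 0.19, 20 members were higher and 3 lower. Changes are therefore given relative to the median gene.

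**Figure D2:**
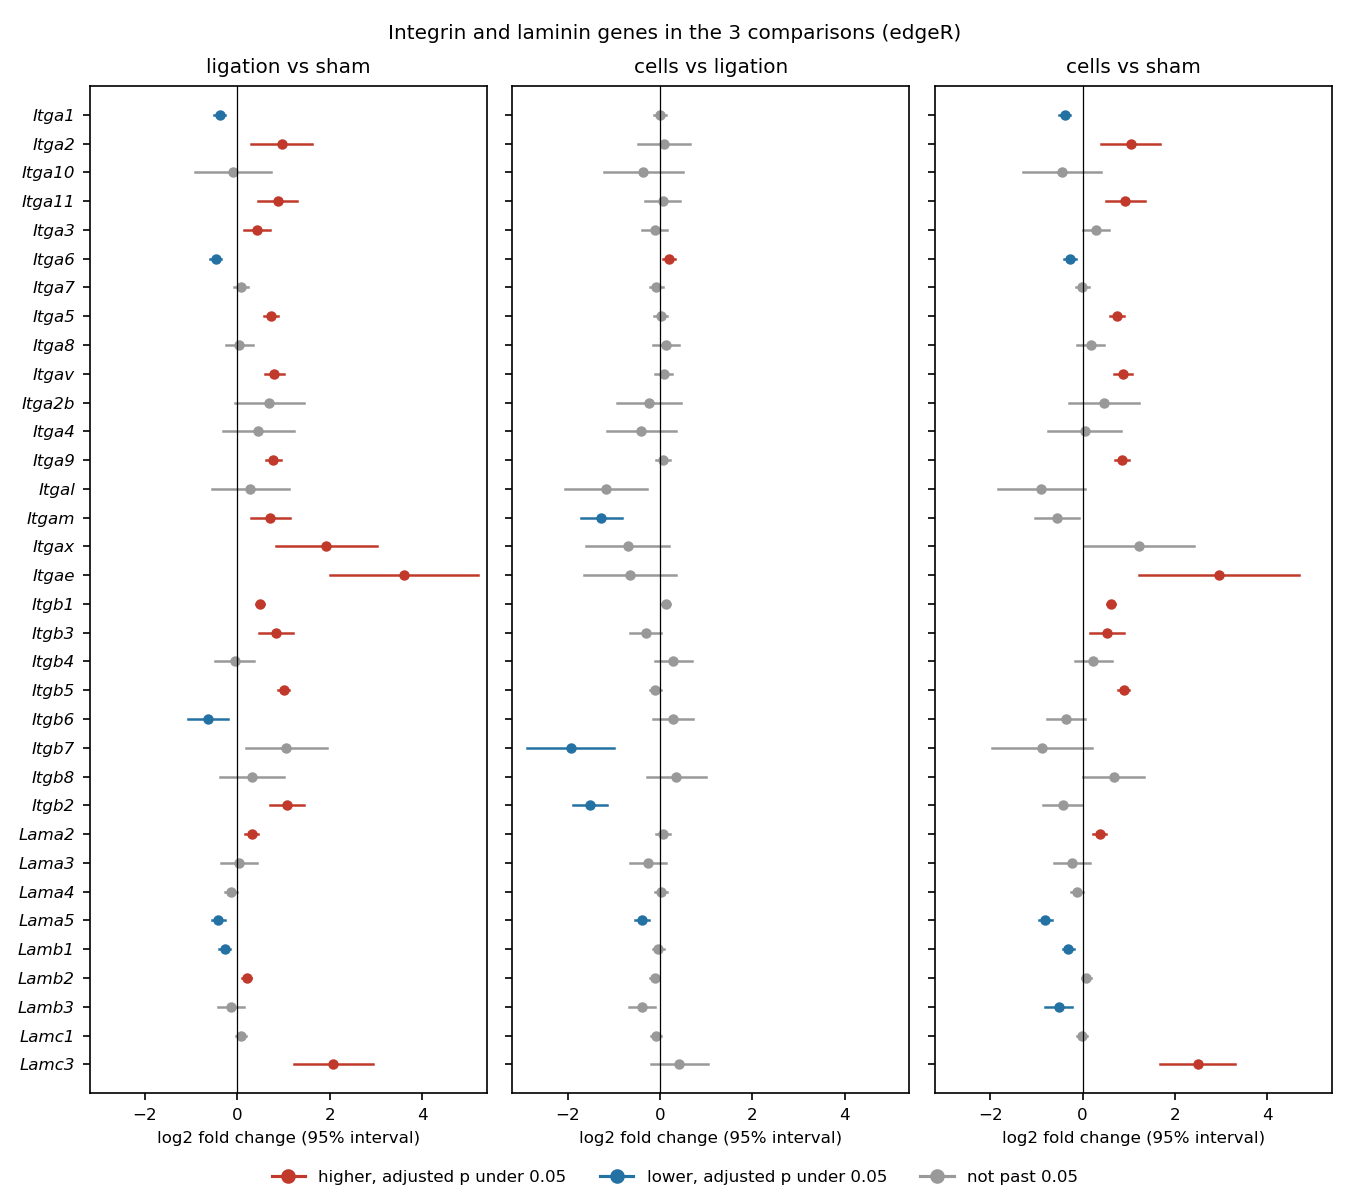
Log2 fold change (points) with its 95% interval (lines) from edgeR for 34 of the 35 tested genes, in 3 panels, from left to right ligation vs sham, cells vs ligation, and cells vs sham; colours mark genes with an adjusted p-value under 0.05. Among the genes drawn, 21 are coloured in the left panel, 5 in the middle and 16 in the right, and the left and right panels share the sham libraries.

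Among the beta chains that bind matrix, Itgb1, Itgb3 and Itgb5 rose after ligation. In what follows the 3 values of a group are CPM in replicates 1, 2 and 3. Itgb1, the common partner of the receptors for collagen, laminin and fibronectin, was at 517, 477 and 520.0 in sham, 722, 684 and 719 after ligation, and 779, 767 and 768 with cells. All ligation libraries exceeded all sham libraries, and all cell libraries exceeded all ligation libraries. The log2 fold change was 0.49 for ligation against sham (95% interval 0.40 to 0.58, edgeR adjusted p = 1.73e-08). Against ligation alone, the cell group differed by 0.12 (0.03 to 0.21, edgeR adjusted p = 0.0787), which did not pass; DESeq2 and limma-voom did call it.

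Itgb5, which joins the Itgav chain in a receptor for vitronectin, stood at 127, 133 and 127 CPM in sham, 239, 253 and 278 after ligation and 240.3, 243 and 234 with cells. Sham and ligation values lay far apart, and ligation and cell values overlapped. It rose by 0.998 on the log2 scale (0.88 to 1.12, edgeR adjusted p = 2.51e-11) and had the smallest p-value of all members. For cells against ligation the log2 difference was -0.10, with an interval of -0.22 to 0.01. Itgb3, the other well-known partner of Itgav and the beta chain of the platelet fibrinogen receptor, was at 7.30, 6.92 and 8.41 CPM in sham, 13.9, 15.8 and 11.3 after ligation and 10.5, 9.99 and 12.2 with cells. It rose by 0.84 after ligation (edgeR adjusted p = 0.000696), with no overlap between sham and ligation. A list of 4 platelet markers summed to 33.3 to 36.2 CPM in sham, 22.1 to 26.2 after ligation and 12.2 to 13.3 with cells. That sum was mostly Pf4 (32.5, 20.2 and 9.71 CPM), while Ppbp, Gp9 and Gp1bb had their highest mean after ligation (2.53, 0.738 and 1.19 CPM). Itga2b, the platelet alpha chain, passed in no comparison.

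Itgb6, a beta chain of epithelia, went the other way. It fell from 9.68 to 11.2 CPM in sham to 6.18 to 6.88 after ligation (log2 fold change -0.64, edgeR adjusted p = 0.0177). That call was lost with library totals and without sham replicate 1. Itgb4, the hemidesmosome chain, and Itgb8, which binds latent TGF-beta, passed in no comparison.

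Of the 4 alpha chains of receptors that bind the RGD motif of fibronectin and vitronectin, Itga5 and Itgav rose after ligation, while Itga8 (0.04, edgeR adjusted p = 0.847) and Itga2b (0.69, edgeR adjusted p = 0.140) did not pass. Itga5, the classic fibronectin receptor chain, ran from 56.5 to 63.2 CPM in sham, from 91.0 to 107 after ligation and from 100.4 to 103 with cells, a log2 rise of 0.73 after ligation (edgeR adjusted p = 5.22e-08). Itgav, the alpha chain shared by Itgb3 and Itgb5, was at 36.8, 31.6 and 28.3 CPM in sham, 60.9, 49.1 and 58.5 after ligation, and 58.7, 60.5 and 58.2 with cells. Its lowest value in a ligated library lay above the highest in sham. The log2 rise was 0.80 after ligation (0.60 to 1.003, edgeR adjusted p = 1.38e-06). Itga9, which binds tenascin-C and osteopontin, stood at 61.6, 63.6 and 59.5 CPM in sham, 90.8, 114 and 110.2 after ligation and 110.2, 108 and 116 with cells. Ligation replicate 1 was the lowest of the 6 ligated libraries and still above every sham library, and the log2 rise was 0.78 (0.62 to 0.94, edgeR adjusted p = 7.80e-08). For these 3 genes the cell group differed from ligation by 0.02 (Itga5, interval -0.12 to 0.16), 0.08 (Itgav, -0.11 to 0.27) and 0.07 (Itga9, -0.08 to 0.23) on the log2 scale.

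Collagen-binding chains split. Itga11, a fibrillar collagen receptor chain of fibroblasts, was at 7.12, 5.77 and 5.56 CPM in sham, 10.9, 9.55 and 13.0 after ligation and 13.6, 9.16 and 12.2 with cells. Both ligated groups lay above sham, and the log2 rise after ligation was 0.87 (edgeR adjusted p = 0.00176). Itga2 was at 2.31, 1.81 and 1.59 CPM in sham, 3.20, 3.47 and 4.25 after ligation, and 3.69, 3.61 and 4.47 with cells. It rose by 0.96 (edgeR adjusted p = 0.0206), a call on 10 to 34 counts a library that was lost in DESeq2 and, in edgeR, without sham replicate 2 or 3 or ligation replicate 3. Itga1, the collagen receptor chain of vessels and smooth muscle and by far the most abundant of this group, fell from 154 to 159 CPM in sham to 116 to 126 after ligation (-0.39, edgeR adjusted p = 2.71e-05) and stayed at 112 to 125 with cells. Itga10 did not pass and is counted with uncertainty, since 33.5% of its exon bases are overlapped by the annotated gene Gm42957.

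Markers of other cells moved over the same libraries. A list of 6 fibroblast markers summed to 1743 to 1797 CPM in sham, 2632 to 2699 after ligation and 2623 to 2677 with cells, with 4 of 6 called higher after ligation and 1, Pdgfra, lower (-0.20, edgeR adjusted p = 0.0490). A list of 4 mesothelial markers summed to 30.0 to 41.5, 179 to 217 and 144 to 153 CPM, all 4 higher after ligation. A list of 6 smooth muscle and pericyte markers summed to 1571 to 1622 CPM in sham, 1118 to 1145 after ligation and 1126 to 1158 with cells, with 4 of 5 tested called lower after ligation, where Itga1 fell too. Over all genes 20.1% were called higher after ligation and 18.0% lower. The part of these cell types in the values of the matrix-binding integrins was not tested. In bulk tissue, more or fewer cells of a type and more or less RNA per cell cannot be told apart.

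**Figure D3:**
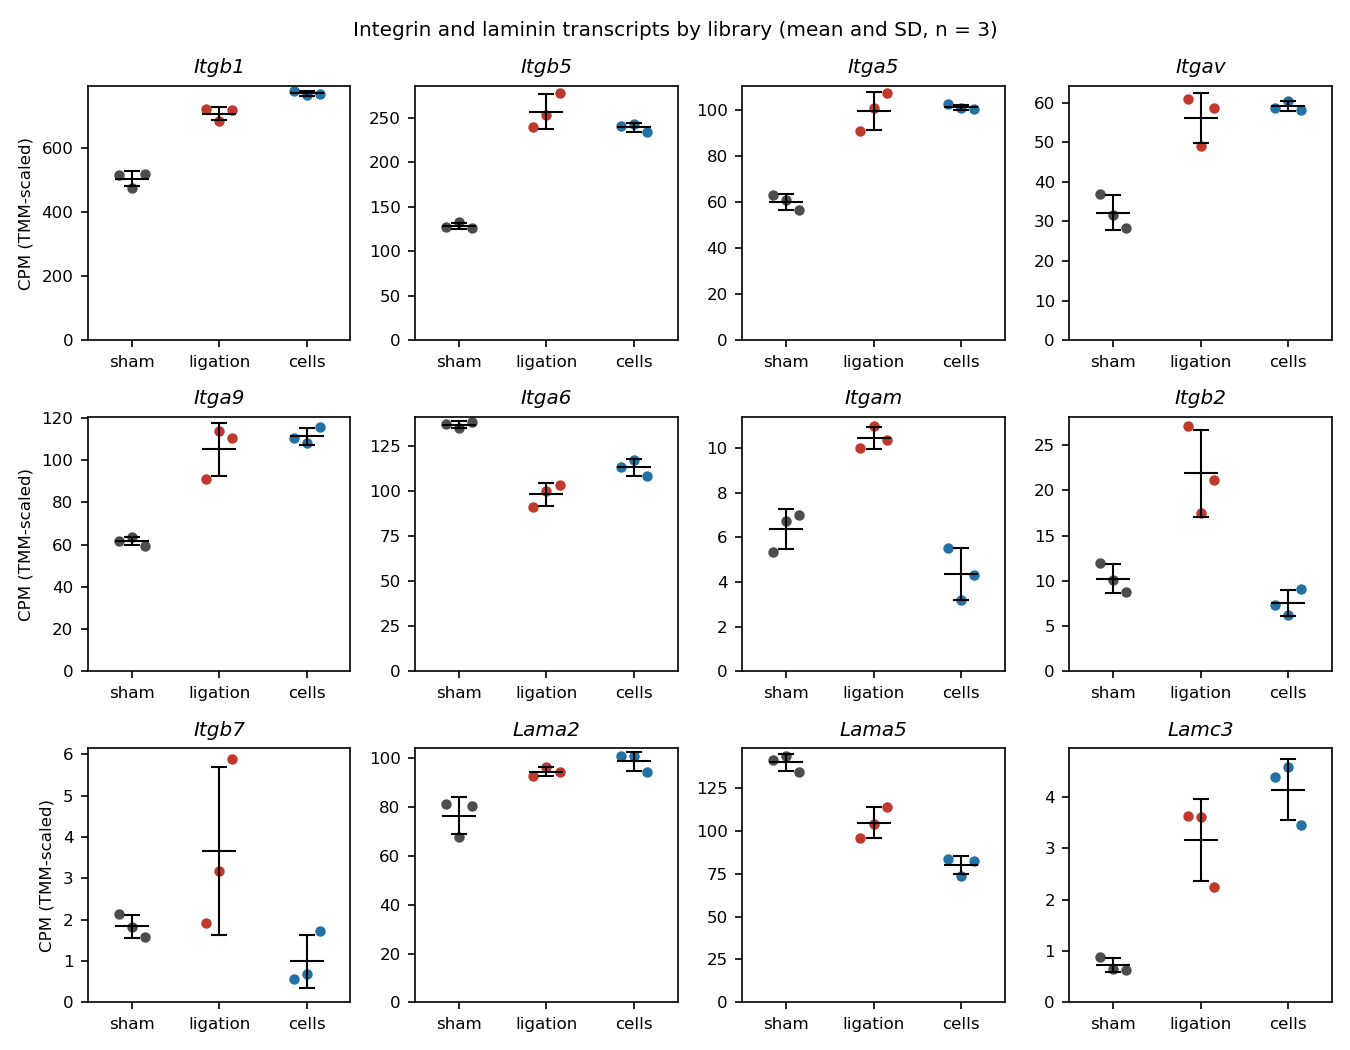
CPM (scaled by TMM factors) of 12 genes in each library, grouped as sham, ligation and cells; points are libraries, and horizontal lines with bars are means and SDs (n = 3). Itgb1, Itgb5, Itga5, Itgav and Itga9 are high in both ligated groups, Itgam, Itgb2 and Itgb7 are lower with cells than after ligation alone, and Lama5 steps down from 134 to 144 CPM in sham to 73.8 to 83.5 with cells.

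The 7 chains grouped as leukocyte are Itgal, Itgam, Itgax, Itgad, Itgae, Itgb2 and Itgb2l. Itgb7 and Itga4 are not in this group and are given below. Of the 7 leukocyte alpha and beta chains 5 were tested. After ligation 4 of them rose (Itgb2, Itgam, Itgax and Itgae), where over all genes 20.1% were called higher. Itgax and Itgae passed the filter on low counts only through ligated libraries. With cells 2 (Itgb2 and Itgam) were lower than after ligation, where over all genes 5.69% were called lower. Itgb2, the beta chain that leukocytes use to bind ICAMs and complement fragments, was at 11.9, 10.05 and 8.73 CPM in sham, 27.1, 17.5 and 21.1 after ligation and 7.38, 6.24 and 9.08 with cells. Each ligation library was above each library of the other groups. It rose by 1.08 after ligation (0.71 to 1.45, edgeR adjusted p = 5.29e-05) and was lower with cells than after ligation by -1.51 (-1.89 to -1.14, edgeR adjusted p = 6.43e-06). Both calls were kept under all 23 alternatives. Itgam, the alpha chain of the complement receptor of macrophages and neutrophils, was at 5.34, 6.75 and 6.99 CPM in sham, 10.01, 11.0 and 10.4 after ligation and 5.53, 3.19 and 4.32 with cells. Again the ligation libraries stood above the others without overlap. The log2 fold change was 0.72 after ligation (edgeR adjusted p = 0.00919), and the cell group differed from ligation by -1.27 (-1.71 to -0.82, edgeR adjusted p = 0.000383). The level of Itgam is uncertain, since 68.7% of its exon bases lie under the annotated readthrough gene Gm49368, which had 0 to 2 counts a library, and how reads shared by both genes were counted is not given in the sources used here.

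Itgax, the alpha chain of dendritic cells and some macrophages, was at 0.534, 0.329 and 0.794 CPM in sham, 1.71, 1.59 and 3.0 after ligation and 1.99, 0.832 and 1.15 with cells. It rose by 1.92 after ligation (0.82 to 3.02, edgeR adjusted p = 0.00633), and the call was lost without ligation replicate 3. For cells against ligation the difference was -0.70 (-1.60 to 0.20), not past the threshold, and these groups overlapped. Itgal, the alpha chain of the main lymphocyte receptor for ICAMs, passed in no comparison, with -1.17 for cells against ligation (-2.07 to -0.28, edgeR adjusted p = 0.0933). Itgae, the chain that binds E-cadherin on epithelia, had 1, 1 and 0 counts in sham, 5, 13 and 13 after ligation and 4, 6 and 11 with cells. The ratio of summed, scaled counts was 14.2 for ligation against sham, with a 95% Clopper-Pearson counting interval of 3.62 to 123. Its edgeR call (adjusted p = 0.000796) rests on those few counts. When only those 2 groups were fitted, Itgae did not pass the filter on low counts and was not tested. Against sham, the cell group was higher by 2.95 for Itgae (edgeR adjusted p = 0.00699, on the same few sham counts) and stood at 1.22 for Itgax (edgeR adjusted p = 0.0912). Itgad, untested, averaged 1.19 CPM in sham, 0.547 after ligation and 1.08 with cells.

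Itgb7, the beta chain that joins Itga4 or Itgae on lymphocytes and some other leukocytes, was at 2.14, 1.81 and 1.59 CPM in sham, 1.92, 3.18 and 5.88 after ligation and 0.567, 0.694 and 1.73 with cells. Ligation replicate 3 was the highest of all 9 libraries, and ligation replicate 1 lay within the sham range. Itgb7 did not pass for ligation against sham (1.06, edgeR adjusted p = 0.0531), a value near the threshold. It was called there with library totals, no filter or only the 2 groups, and without ligation replicate 1 or cell replicate 2 or 3. With cells it was lower than after ligation by -1.93 (-2.88 to -0.99, edgeR adjusted p = 0.00767), and without ligation replicate 3 the difference was -1.39 with an edgeR adjusted p of 0.121. Itga4, its alpha partner, was at 1.15 to 3.47 CPM throughout and passed in no comparison.

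For cells against ligation 1 tested member was higher, 4 were lower and 30 did not pass, where over all genes 4.19% were called higher and 5.69% lower. The 4 lower were Itgb7, Itgb2, Itgam and Lama5. The median over the members was -0.08 against 0.00 over all genes. Leaving out cell replicates 2 and 3, whose source field names other FOXO members, lost the calls of Itgam (-0.92, edgeR adjusted p = 0.0812) and Lama5 (-0.33, 0.105), and leaving out ligation replicates 2 and 3 kept Itgb2 alone. These fits assume that the lone remaining library varies like the other groups.

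Among leukocyte markers, the summed level of the macrophage list was highest after ligation, and the sums of the neutrophil and dendritic cell lists, each set by 1 or 2 abundant genes, were highest in sham. Of 8 macrophage and monocyte markers, 7 were higher after ligation and all 8 lower with cells than after ligation, and their sum was 569 to 624 CPM in sham, 1073 to 1111 after ligation and 443 to 464 with cells. Over all genes 20.1% were higher and 18.0% lower after ligation, and 5.69% were lower with cells than after ligation. Neutrophil markers (6 genes) summed to 37.9 to 44.3, 14.1 to 19.5 and 5.76 to 6.24 CPM; of the 4 tested, 2 were lower after ligation and 3 lower with cells than after ligation. The sum in sham was mostly S100a8 and S100a9 (14.5 and 19.0 CPM there, 3.69 and 4.96 after ligation), whereas Csf3r averaged 4.14, 6.34 and 1.61 CPM. Dendritic cell markers (5 genes) summed to 44.7 to 53.7, 32.2 to 37.2 and 27.9 to 32.1 CPM, with 1 of 2 tested lower after ligation (Zbtb46, at 42.9, 26.8 and 24.7 CPM). The untested Flt3, Xcr1 and Cd209a had their highest mean after ligation, at 0.806, 1.24 and 0.711 CPM. Mast cell markers (4 genes) summed to 13.7 to 14.99, 9.50 to 11.3 and 7.91 to 11.1 CPM. Of the 3 tested, 1 (Cma1, edgeR adjusted p = 0.0456) was called lower after ligation, a call lost in DESeq2, with library totals, with the replicate block, and without any 1 library other than ligation replicate 3. The 7 genes of leukocyte alpha and beta chains together summed to 18.6 to 21.8, 34.7 to 42.4 and 12.9 to 18.2 CPM. The part of leukocyte number in these differences was not tested. Markers of T cells (5 genes) summed to at most 1.0 CPM and of NK cells (3) to at most 1.88 in any library, with Cd3d at 0 counts in all 9.

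**Figure D4:**
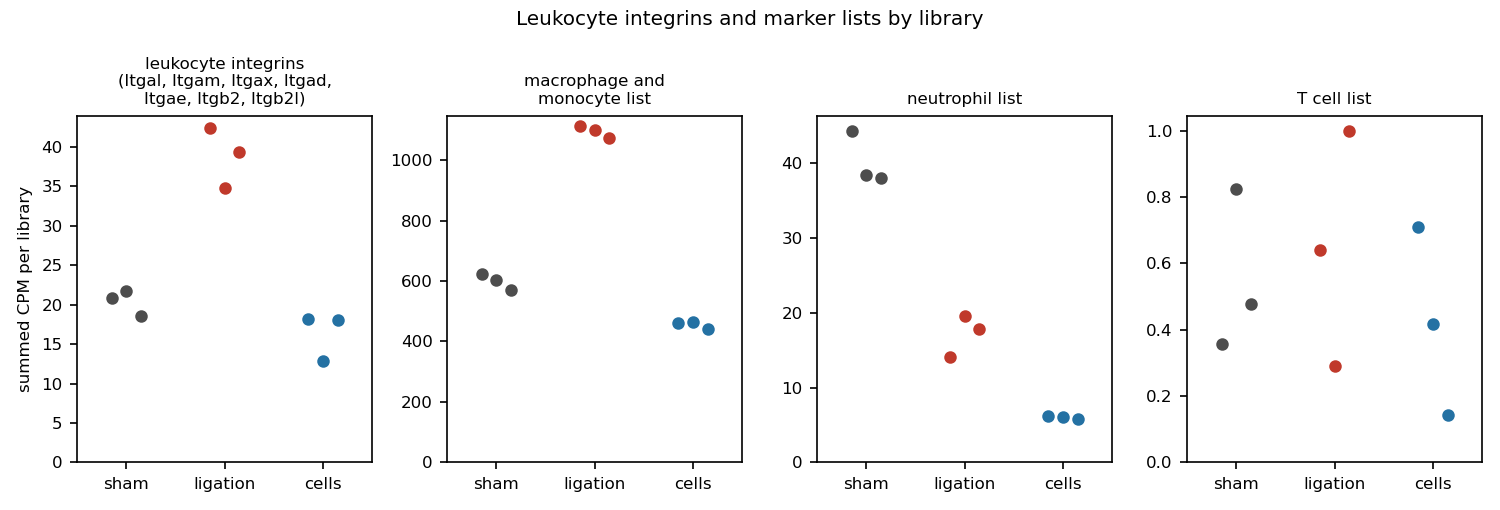
Summed CPM in each library for 7 leukocyte integrin genes, 8 macrophage and monocyte markers, 6 neutrophil markers and 5 T cell markers; points are libraries. The first and second panels are highest after ligation, the neutrophil sum is highest in sham and lowest with cells, and the T cell sum does not exceed 1.0 CPM.

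Laminin-binding alpha chains did not move together. Itga6, a receptor chain of endothelium and epithelia, was at 137, 135 and 138 CPM in sham, 91.0, 100.1 and 103 after ligation and 113, 117 and 108 with cells, so the 3 groups did not overlap. It fell by 0.47 on the log2 scale after ligation (interval -0.60 to -0.34, edgeR adjusted p = 3.31e-06). The cell group was higher than ligation by 0.20 (0.07 to 0.33, edgeR adjusted p = 0.0465), a call at the threshold that was lost in 18 of 23 alternatives, DESeq2 and the omission of any 1 cell library among them. Itga3, which binds laminins with the Lama3 or Lama5 chain, rose by 0.42 after ligation (edgeR adjusted p = 0.0180), a call lost without sham replicate 2 or ligation replicate 2 or 3. Itga7, the laminin receptor chain of heart muscle, was at 117 to 144 CPM in all libraries and passed in no comparison, with an interval of -0.07 to 0.22 for ligation against sham.

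The laminin alpha chains diverged. Lama5, an alpha chain of vessel and epithelial basement membranes, was at 141, 144 and 134 CPM in sham, 95.9, 104 and 114 after ligation and 83.5, 73.8 and 82.5 with cells. No library of 1 group overlapped with another group. It fell by 0.41 after ligation (interval -0.56 to -0.27, edgeR adjusted p = 7.21e-05), and cells against ligation gave -0.39 (-0.54 to -0.24, edgeR adjusted p = 0.00079). Cells against sham gave -0.80 (-0.95 to -0.66, edgeR adjusted p = 1.01e-08). Lama5 and Itga6 were the 2 members called in all 3 comparisons. Lama2, the muscle chain whose loss causes a congenital muscular dystrophy, was at 81.5, 67.7 and 80.5 CPM in sham, 92.7, 96.5 and 94.4 after ligation and 101, 101 and 94.4 with cells. All ligated libraries were above all sham libraries, and the log2 rise was 0.31 (0.16 to 0.45, edgeR adjusted p = 0.00192). Cells against ligation gave 0.06 (-0.08 to 0.21) for Lama2. Lama4, the other vessel chain and the most abundant laminin alpha chain per kb of transcript, passed in no comparison (113 to 135 CPM), and Lama3 was at 6.53 to 9.55 CPM without a call.

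Endothelial markers fell after ligation, where Itga6 and Lama5 fell too: 6 of 7 were called lower and 1 higher. Over all genes 18.0% were lower and 20.1% higher there. The markers summed to 2045 to 2166 CPM in sham, 1434 to 1538 after ligation and 1538 to 1585 with cells. In cells against ligation 2 of the 7 were called higher and 1 lower, whereas Lama5 was called lower. Over all genes 4.19% were higher and 5.69% lower in that comparison. Lama2 is also made by Schwann cells, and 4 Schwann cell markers summed to 16.3 to 21.9, 24.6 to 27.7 and 53.0 to 62.7 CPM. The fibroblast list given above was also higher after ligation, where Lama2 rose. The part of endothelial cells, Schwann cells and fibroblasts in the laminin values was not tested. With library totals alone the falls after ligation shrank to -0.29 for Itga6, -0.22 for Lama5 and -0.20 for Itga1, the rise of Lama2 grew to 0.49, and Lamb1 no longer passed (-0.09).

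Of the beta and gamma chains, Lamb2 rose by 0.20 after ligation (edgeR adjusted p = 0.00174) and Lamb1, the other widely used beta chain, fell by 0.27 (interval -0.39 to -0.15, edgeR adjusted p = 0.000701). Lamb3, the beta chain of epithelial laminin, was at 15.6 to 17.4 CPM in sham and 10.2 to 12.9 with cells, lower than sham by -0.52 (edgeR adjusted p = 0.00448). Lamc1 was at 257 to 301 CPM in all libraries and passed in no comparison. Lamc3, a gamma chain of low abundance, was at 0.890, 0.659 and 0.635 CPM in sham, 3.62, 3.62 and 2.25 after ligation and 4.40, 4.58 and 3.46 with cells. Every ligated library exceeded every sham library, and ligation replicate 3 was the lowest of them. The log2 rise was 2.07 after ligation (1.22 to 2.93, edgeR adjusted p = 0.000405), and the call was kept under all 23 alternatives. With 5, 4 and 4 counts in sham, Lamc3 passed the filter on low counts only through the ligated libraries, where it is high. The call is therefore a description of those few counts.

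Cells against sham shows which members still differed from sham: 12 were higher, 5 lower and 18 not past the threshold, where over all genes 21.0% were called higher and 20.0% lower. This comparison shares the cell libraries with the second comparison and the sham libraries with the first. With library totals the counts were 17 and 4. Among the 12 higher members, Itgae and Lamc3 passed the filter on low counts only through ligated libraries. The members called both here and after ligation numbered 15, Itgb1, Itgb3, Itgb5, Itga5, Itgav, Itga9, Itga11 and Lama2 among them. Of these, the call of Itgb3 for cells against sham was lost in 6 of 23 alternatives, among them DESeq2 and the omission of sham replicate 1 or 2 or cell replicate 3. Another 6 (Itga3, Itgam, Itgax, Itgb6, Itgb2 and Lamb2) passed for ligation against sham and not for cells against sham; for Itgb2 the cell group stood at -0.43 from sham (-0.85 to -0.01, edgeR adjusted p = 0.0938) and for Itgam at -0.55 (-1.04 to -0.07, edgeR adjusted p = 0.0621). Lamb3 passed for cells against sham and not for ligation against sham. In no comparison did Itga10, Itga7, Itga8, Itga2b, Itga4, Itgal, Itgb4, Itgb8, Lama3, Lama4 or Lamc1 pass.

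Because shares within a class do not depend on library scaling, each chain was also expressed as a percentage of the length-scaled counts of its class in a library. Itgb1 made up 70.3% of integrin beta transcripts in sham, 63.7% after ligation and 68.2% with cells, and Itgb5 made up 24.3%, 31.2% and 28.6%. The total of the beta class was 188 ± 5.87 CPM per kb (SD, n = 3) in sham, 292 ± 9.75 after ligation, a ratio of 1.55, and 297 ± 1.90 with cells. Among the alpha chains, Itga6 held 26.4%, 16.7% and 19.0%, Itga5 11.2%, 16.4% and 16.5%, and Itga9 11.2%, 16.9% and 17.7%. The alpha total was 122 ± 3.16, 139 ± 9.09 and 140.3 ± 1.70 CPM per kb. The size of the alpha total and shares depends on the length assigned. In sham Itga6, Itga5 and Itga1 were at 32.3, 13.8 and 14.2 CPM per kb of transcript. Per kb of summed exon length they were at 15.2, 12.2 and 8.39 CPM.

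Laminin alpha transcripts differed in composition between the groups. Their total was 46.1 ± 1.42 CPM per kb in sham, 43.5 ± 1.54 after ligation and 42.2 ± 1.61 with cells. Lama5 took 26.3%, 28.4% and 25.3% of the class in the sham libraries, 20.1%, 20.9% and 22.3% after ligation, and 16.8%, 15.2% and 17.9% with cells. Lama2 took 25.0%, 21.98% and 24.9%, then 32.0%, 31.9% and 30.3%, then 33.5%, 34.2% and 33.7%. No library of a group overlapped with another group for either chain. Each pair of groups differed with an exact two-sided permutation p of 0.1, the smallest that 3 against 3 libraries allow, and 0.181 after adjustment over 105 tests, so no share could pass 0.05. The size of the Lama5 share depends on the length assigned: with summed exon length it was 42.9%, 35.8% and 29.6%, in the same order, and in sham it then exceeded that of Lama4, which came to 38.1%.

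**Figure D5:**
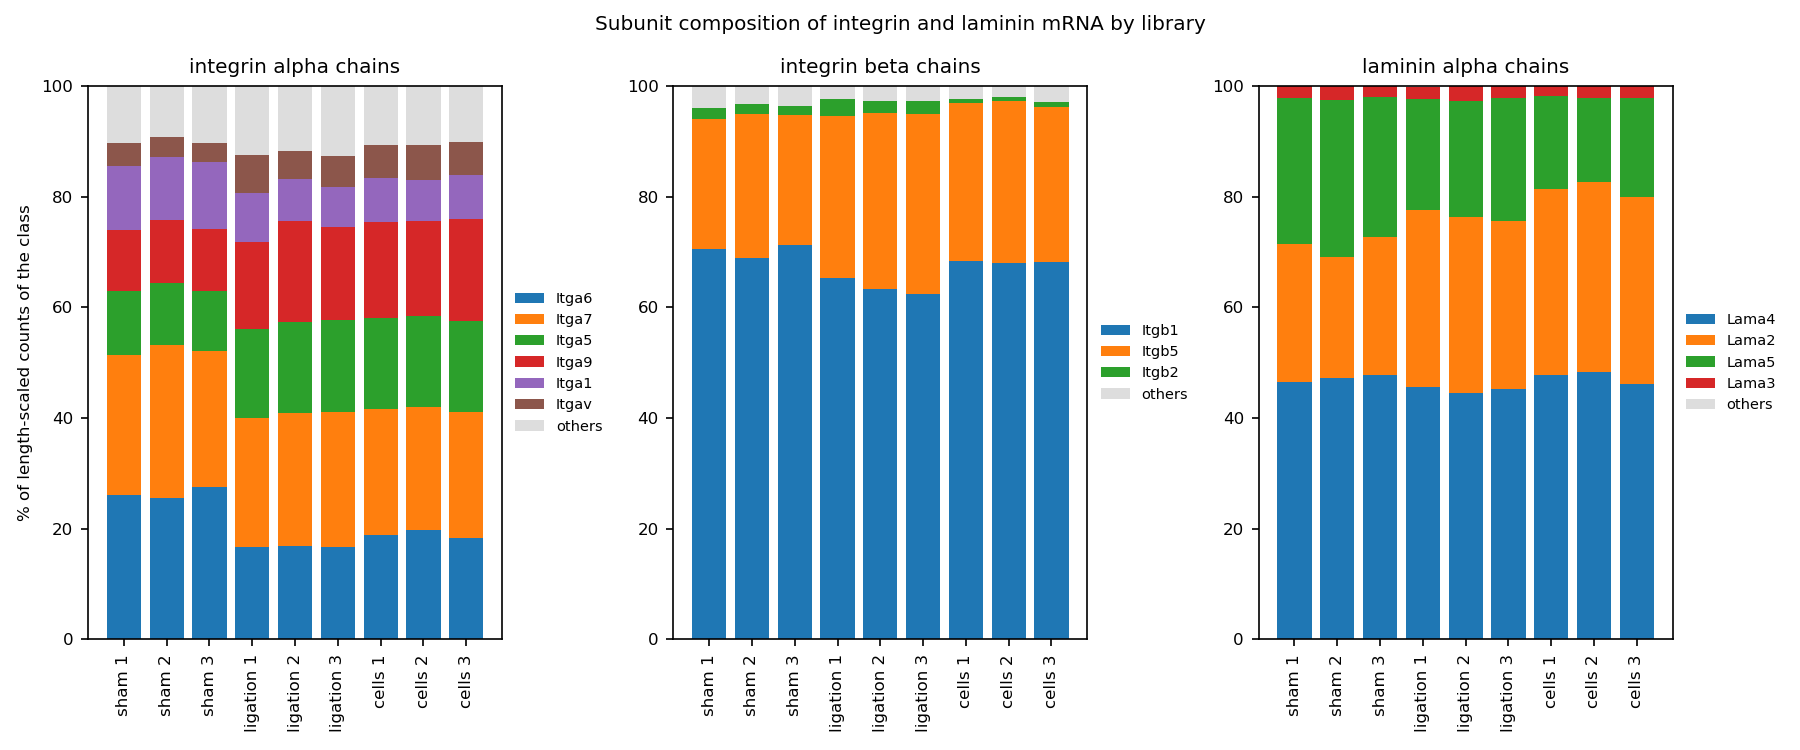
Share of each chain in the length-scaled counts of integrin alpha, integrin beta and laminin alpha transcripts (%, stacked to 100), 1 bar per library, by transcript length. Itga6 shrinks and Itga5 and Itga9 widen in the 6 ligated libraries, Itgb5 widens, and in the laminin panel Lama5 narrows from sham to ligation to cells as Lama2 widens.

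Other genes of the pathway were taken from lists of ligands, adaptors and basement membrane partners. Of 15 integrin ligands, 13 were tested: 8 rose and 3 fell after ligation, and 2 rose and 2 fell in cells against ligation, with a median log2 fold change of 0.81 and -0.01. Over all genes 20.1% were higher and 18.0% lower after ligation, and 4.19% and 5.69% in cells against ligation, so the 3 ligands that fell are near the share over all genes. Without ligation replicates 2 and 3, 1 ligand was lower in cells against ligation. Fn1, which encodes fibronectin, the ligand of Itga5 with Itgb1, went from 88.1 ± 2.82 CPM (SD, n = 3) in sham to 275 after ligation and 298 with cells. Spp1, osteopontin, a ligand of Itgav and Itga9 and abundant in macrophages, went from 2.40 to 29.0 and 14.3 CPM, a log2 rise of 3.60 followed by a difference of -1.02 between cells and ligation (edgeR adjusted p = 5.60e-06). Thbs1 and Ccn1, matricellular ligands, rose at both steps, by 1.28 and 0.81 after ligation and by 0.63 and 0.46 in cells against ligation. Ccn2 (2.40), Postn (2.34) and Tnc (2.17) were also among those that rose after ligation. Icam1 and Vcam1, counter-receptors of Itgb2 and Itga4, did not pass after ligation (-0.15 and -0.07) or in cells against ligation (0.00 and -0.23), whereas Icam2, another counter-receptor of Itgb2, fell by 0.85 after ligation, from 74.8 to 41.6 CPM (edgeR adjusted p = 5.71e-08). Vtn, vitronectin, fell by 0.89 after ligation.

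Of 23 activators and adaptors at the cytoplasmic tail, 21 were tested: 6 rose and 4 fell after ligation (median -0.04), and 2 rose and 1 fell in cells against ligation. Over all genes 20.1% rose and 18.0% fell after ligation, and 4.19% rose and 5.69% fell in cells against ligation. The 4 that fell after ligation and the 1 that fell in cells against ligation are near those shares. The count of 6 became 10 with library totals and 1 without ligation replicates 2 and 3, which also left 2 lower. Tln1, the talin that switches integrins on, rose by 0.21 after ligation (edgeR adjusted p = 0.00535), a call lost without ligation replicate 3. Fermt3, the kindlin of blood cells, was at 7.61, 12.5 and 5.38 CPM in the 3 groups, higher by 0.71 after ligation (edgeR adjusted p = 0.00467) and lower by -1.21 with cells (edgeR adjusted p = 0.000196). Vcl, vinculin, which couples talin to actin, was at 36.0, 52.8 and 67.5 CPM in the 3 groups and passed at both steps, but the call for cells against ligation was lost with library totals and without ligation replicate 1 or 2 or cell replicate 2 or 3. Src rose by 0.80 after ligation, and Itgb1bp2, the muscle protein melusin that binds the Itgb1 tail, fell by 0.70 from 211 to 130 CPM. Lims1, an adaptor of the kinase Ilk, rose by 0.20 in cells against ligation, with an edgeR adjusted p of 0.0455, a call lost in DESeq2, with library totals and without any 1 of several libraries (sham replicate 1 or 3, ligation replicate 1 or 2, cell replicate 1 or 3).

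All 22 basement membrane partners and other laminin receptors were tested, and 15 rose and 3 fell after ligation, with a median of 0.27. Over all genes 20.1% rose and 18.0% fell, so the 3 that fell do not exceed the share over all genes. In cells against ligation 1 rose (Ntn4, by 0.34) and 2 fell (Col4a2 by 0.26 and Col15a1 by 0.22), counts near the 4.19% and 5.69% over all genes, and with library totals 4 fell. Without cell replicates 2 and 3, or without ligation replicates 2 and 3, none of these 3 passed, and the latter omission left 8 higher in ligation against sham. The call of Ntn4 was also lost in DESeq2 and without ligation replicate 1 or 2 or cell replicate 2 or 3, and that of Col15a1 without ligation replicate 3 or cell replicate 1 or 2. The minor type IV collagen chains Col4a3, Col4a5 and Col4a6 rose after ligation by 1.09, 0.86 and 0.88, and Col4a4, another minor chain, did not pass (0.25, edgeR adjusted p = 0.126). Of the main network, Col4a2 rose by 0.24 (edgeR adjusted p = 0.00101) and Col4a1 by 0.15, a call lost without ligation replicate 3 (edgeR adjusted p = 0.128). Dag1, dystroglycan, the receptor that binds Lama2 on muscle, rose by 0.34 from 304 to 384 CPM and was at 384 with cells. Dmd, dystrophin, which anchors it inside the cell, rose by 0.86, and in cells against sham stood at 0.96 (edgeR adjusted p = 1.31e-10).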

How the data were processed

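Libraries were NEBNext Ultra RNA preparations of TRIzol-extracted RNA, per the labels' protocols. What the authors deposited are raw counts of reads by gene, not normalized, and the submitters' processing notes name the build mm10. Aligner, counter and strand setting are not given in the sources used here, so overlapping and antisense genes are uncertain. Reads from implanted cells were not analysed here. Of the tested members, 1 enters the counts but is neither named nor drawn, and 1 marker list is not reported here.

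Symbols, exon overlaps and transcript lengths came from GENCODE M21. Summary lines of the files (no feature, 4.14% to 4.91%, and ambiguous, 8.09% to 8.72%, of counts) were left out. In R 4.3.3, edgeR 4.0.16 kept genes by filterByExpr, scaled by TMM and fitted 1 quasi-likelihood model over 9 libraries with a mean per group and 6 residual degrees of freedom. P-values were adjusted over 13825 genes. The fit was tested on simulated data. The counting interval and the floors cover counting error only.

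Members and gene lists were chosen with earlier results of these data known. Shown library by library are Itgb1, Itgam, Lama2 and, among called members with a mean of at least 1 CPM in a compared group, the 10 with the largest change between ligation and sham and between cells and ligation. List genes named are up to 3 per comparison by the same rule, and 8 set by name whatever their values (Vtn, Icam2, Col4a4 and the cell markers named singly were added after their values were seen). Shares were compared by exact permutation. DESeq2 1.42.0 and limma 3.58.1 (voom) were among 23 alternatives. Figures used matplotlib 3.10.9.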

Additional observations from a re-analysis of the deposited data

How the results depend on the processing

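Counts of called members kept within 1.5 times of those reported under most of the 23 alternatives, 2 of which (headers sharing a stem summed, and ligation replicates 2 and 3 left out) were chosen after seeing the data. Requiring an absolute log2 fold change of at least 1 left 4 higher and 0 lower in ligation against sham, 0 higher in cells against ligation, and 3 higher and 0 lower in cells against sham. Library totals gave 3 lower in ligation against sham, and the omission of ligation replicates 2 and 3 gave 9 higher there and 1 lower in cells against ligation. Without cell replicates 2 and 3, 2 were lower in cells against ligation. The 1 higher member there, Itga6, gave a count of 0 with upper-quartile factors, library totals, no filter, a mean of at least 1 CPM, only 2 groups, the replicate block, summed headers, and without cell replicates 2 and 3 or ligation replicates 2 and 3; limma-voom gave 2. Leaving out single libraries gave 14 to 18 higher and 4 to 6 lower for ligation against sham, 0 to 1 and 3 to 5 for cells against ligation, and 10 to 12 and 5 to 7 for cells against sham. The cause was not tested.

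Replicate numbers were not taken to pair samples, since same-numbered libraries deviated with correlations of 0.14, 0.08 and -0.12 for ligation and sham and -0.04, -0.04 and 0.05 for cells and ligation, and 3, 2 and 0 of 6 libraries correlated best with their own number in the 3 comparisons. With the replicate block 16 members were higher and 5 lower in ligation against sham, and 0 and 4 in cells against ligation; in cells against sham 13 were higher and 5 lower.

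Values that changed sign were uncalled under every alternative that turned them. With library totals Icam1 and Vcam1 for ligation against sham gave 0.0351 and 0.114, and Vcam1 gave 0.0801 without ligation replicates 2 and 3. In cells against ligation, that omission gave -0.0414 for Itgav, 0.0023 for Itgb5, 0.0401 for Dag1 and 0.0297 for Icam1. Without single libraries the ranges there were -0.018 to 0.225 (Itga2), -0.0687 to 0.205 (Itga11), -0.0138 to 0.131 (Itgav), -0.0135 to 0.133 (Itga9), -0.0205 to 0.0126 (Dag1) and -0.0753 to 0.0861 (Icam1), and -0.0238 to 0.0375 for Col4a1 in cells against sham. Dag1 gave 0.0038 with DESeq2 size factors, 0.0027 in DESeq2, 0.0005 without a filter, 0.0004 with the block, 0.0087 with summed headers and 0.0216 without cell replicates 2 and 3; Icam1 gave 0.0001 in DESeq2, 0.0013 with the block and 0.0375 without cell replicates 2 and 3; Col4a1 gave -0.0036 with upper-quartile factors, -0.0072 without mitochondrial genes and -0.0108 with summed headers. Genes under about 1 CPM, such as Itgae, Itgax and Lamc3 in sham, rest on few counts.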
